A study of Homo sapiens with 6 samples.

Results

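The branched-chain amino acid (BCAA) degradation enzymes described here are 10 genes, ordered by pathway step and not by any measured value: BCAT1, BCAT2, BCKDHA, BCKDHB, DBT, BCKDK, IVD, ACADSB, HIBCH and MCCC2. They were chosen with earlier results of these data known. All 10 were found among the 63241 Ensembl genes of the count table by their symbols in GENCODE release 44 (GRCh38). HT-1376, an established line of human bladder carcinoma cells, was transfected with a single siRNA against SHMT2 (siSHMT2, genotype labelled as SHMT2 knockdown) or with a non-targeting siRNA (siNC, labelled as WT), and mRNA was sequenced from 3 libraries of each group, collected the day after transfection, which the study calls biological replicates. The counts summed to 817748, 660559 and 890574 in siNC replicates 1 to 3 and to 533689, 818859 and 815061 in siSHMT2 replicates 1 to 3. These totals are far below the number of sequenced reads per sample that the paper gives, and the reason was not tested. The study also profiled metabolites of siSHMT2 and siNC cells. Among the pathways of its differential metabolites it named both the breakdown and the biosynthesis of valine, leucine and isoleucine. Those metabolite values were not analysed here, and the question was whether the mRNAs of the enzymes differed between the same groups.

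Leucine, isoleucine and valine are broken down mostly in mitochondria. An aminotransferase first moves the amino group to a keto acid, and the branched-chain keto acid dehydrogenase complex then removes a carbon as CO2 and joins the rest to CoA, which is the committed step. From there each amino acid has its own branch of acyl-CoA enzymes, and the products are acetyl-CoA, acetoacetate and propionyl-CoA. SHMT2, the gene silenced here, encodes the mitochondrial enzyme that takes a carbon from serine to give glycine and a folate-bound carbon unit.

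SHMT2 was lower in siSHMT2. Its level in CPM (the count scaled to the library total, with TMM normalization) was 33.5, 23.9 and 21.8 in siNC replicates 1 to 3 and 16.8, 2.50 and 6.02 in siSHMT2 replicates 1 to 3. The groups did not overlap. The edgeR log2 fold change was -1.78 (95% interval -2.74 to -0.81), or 3.43-fold lower, and the adjusted p was 0.94 by the edgeR quasi-likelihood test with correction over all tested genes. Its size depended on single libraries, being -2.58 without siSHMT2 replicate 1 and -1.31 without siSHMT2 replicate 2. The paper also reports significantly lower SHMT2 RNA by RT-qPCR and protein by Western blot, and a significant decrease in its own RNA-seq values. GAPDH, a glycolytic enzyme used as the RT-qPCR reference, had a CPM of 1017 ± 44.2 for siNC and 956 ± 73.8 for siSHMT2 (SD, n = 3 each). A CPM value is a share of the library, so a change of 1 mRNA and a change of the remaining RNA cannot be told apart.

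The markers of epithelial cells fixed for the label were present. All 12 had a count, and their summed level was 5293 ± 194 CPM for siNC and 5292 ± 258 CPM for siSHMT2 (SD, n = 3 each), most of it from KRT8 (57.4% of the counts), a keratin of simple epithelium. KRT20 and UPK2, markers of umbrella cells of the urothelium, had 1 count each over the 6 libraries. GATA3, a urothelial transcription factor, was 44.2, 49.3 and 56.7 CPM in siNC and 85.8, 63.9 and 72.3 CPM in siSHMT2. Its groups did not overlap, and its log2 fold change was 0.54 (95% interval 0.08 to 1.00, adjusted p 1.00 in edgeR). The leukocyte, endothelial and fibroblast markers had 38, 11 and 21 counts in all, and PTPRC, CD3E, VWF, DCN and PDGFRA had 0.

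The 10 enzymes together held 380 counts in the 6 libraries. Only BCKDK, MCCC2 and DBT passed the filter on low counts (edgeR's filterByExpr), which kept 7207 of the 20836 genes with any count, and the other 7 were described by their counts. At a threshold of 0.05, neither the adjusted nor the unadjusted edgeR p called any of these 3. In all tested genes, 0 (0%) passed an adjusted p under 0.05 with a fold change over 1.5, and 275 (3.82%) had an unadjusted p under 0.05 in edgeR, against 117 with DESeq2, which also called 0 genes after adjustment. The summed level of the 10 enzymes was lower in every siSHMT2 library than in every siNC library, but not once MCCC2 was left out.

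**Figure D1:**
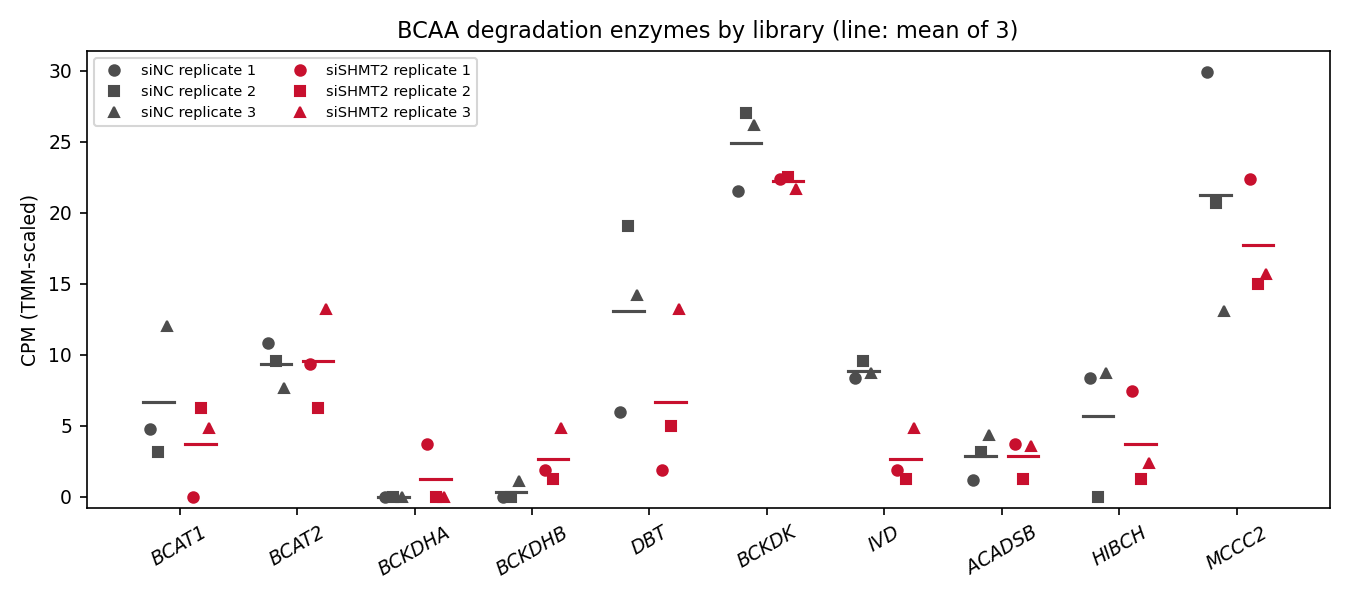
Level in CPM (vertical axis) of each of the 10 enzymes in the 3 siNC and 3 siSHMT2 libraries, with a line at the mean of each group. IVD lies between 8.37 and 9.54 CPM in siNC and between 1.25 and 4.82 CPM in siSHMT2, while the points of the groups overlap for BCAT1, BCAT2, BCKDHA, DBT, BCKDK, ACADSB, HIBCH and MCCC2.

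The aminotransferases differ in place, BCAT1 in the cytosol and BCAT2 in mitochondria. BCAT2 (ENSG00000105552, chromosome 19 from 48795062 to 48811029, minus strand) had 9, 6 and 7 counts in siNC replicates 1 to 3 and 5, 5 and 11 in siSHMT2 replicates 1 to 3. The groups overlapped, and the mean CPM was 9.31 ± 1.57 for siNC and 9.61 ± 3.50 for siSHMT2 (SD, n = 3 each). The ratio of the summed counts of siSHMT2 to siNC, corrected for the library totals, was 1.04 (95% exact interval 0.546 to 1.99). Such an interval covers counting error only and is narrower than one that includes the spread between libraries.

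BCAT1 (ENSG00000060982, chromosome 12 from 24810024 to 24949101, minus strand) had 4, 2 and 11 counts in siNC and 0, 5 and 4 in siSHMT2. The groups overlapped, siNC replicate 3 was the highest library and siSHMT2 replicate 1 the lowest. The count ratio was 0.579 (95% exact interval 0.227 to 1.37), and its log2 value moved from -0.79 to 0.03 without siNC replicate 3. By FPKM, which scales the count by gene length, BCAT1 made up 9.71%, 7.46% and 27.6% of the summed aminotransferase level in siNC and 0%, 19.5% and 8.09% in siSHMT2. BCAT2 was therefore the larger of the pair in all 6 libraries, and the share of BCAT1 was 14.9% ± 11.0 for siNC and 9.19% ± 9.79 for siSHMT2 (SD, n = 3 each), and a two-sided exact permutation test gave p = 0.6, where 0.1 is the smallest possible.

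The dehydrogenase complex is built from a decarboxylase of the subunits BCKDHA and BCKDHB, a core transacylase, DBT, and the dihydrolipoamide dehydrogenase DLD, which it shares with other complexes. DBT (ENSG00000137992, chromosome 1 from 100186919 to 100249834, minus strand) had 5, 12 and 13 counts in siNC and 1, 4 and 11 in siSHMT2. In CPM this was 5.98, 19.1 and 14.2 against 1.87, 5.01 and 13.2. siSHMT2 replicate 3 lay within the range of siNC, so the groups overlapped, and a two-sided exact permutation test of the FPKM values gave p = 0.2. The log2 fold change of DBT was -0.80 (standard error 0.57, 95% interval -1.96 to 0.35), with an adjusted p of 1.00 in edgeR. It rested on single libraries, being -1.75 without siSHMT2 replicate 3 and -0.47 without siSHMT2 replicate 1.

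Both decarboxylase subunits were close to the limit of detection. BCKDHA (ENSG00000248098, chromosome 19 from 41397808 to 41425002, plus strand) had 0 counts in 5 of the 6 libraries and 2 counts in siSHMT2 replicate 1. A count of 0 allows a level of up to 3.59, 4.77 and 3.27 CPM in siNC replicates 1 to 3, by counting error only (3 counts per library), so absence was not shown. A second protein-coding gene, ENSG00000255730, lies on the same strand and covers 1660 exonic bases of BCKDHA, or 73.7% of them, and it held 3 counts. How reads that fit both genes were counted is not given in the sources used here, so the level of BCKDHA is uncertain. BCKDHB (ENSG00000083123, chromosome 6 from 80106647 to 80346270, plus strand) had 0, 0 and 1 counts in siNC and 1, 1 and 4 in siSHMT2. Its siSHMT2 libraries all lay above its siNC libraries in CPM. However, siNC replicate 3 and siSHMT2 replicates 1 and 2 had 1 count each (1.09, 1.87 and 1.25 CPM), so these were set apart by the library totals alone. The ratio of 6.56 rested on 7 counts and had a 95% exact interval from 0.796 to 302, and its log2 value moved from 2.71 to 1.81 without siSHMT2 replicate 3.

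BCKDK is the kinase that phosphorylates the decarboxylase and so switches the complex off, and it was the member with the most counts, 107. BCKDK (ENSG00000103507, chromosome 16 from 31106107 to 31112791, plus strand) had 18, 17 and 24 counts in siNC and 12, 18 and 18 in siSHMT2. In CPM it was 21.5, 27 and 26.2 in siNC and 22.4, 22.5 and 21.7 in siSHMT2, so the groups overlapped through siNC replicate 1. The log2 fold change was -0.16 (standard error 0.34), with an adjusted p of 1.00 in edgeR. The 95% interval ran from 0.554-fold to 1.44-fold, and changes within that range are compatible with these counts. The phosphatase that reverses the kinase, PPM1K, had 8 counts in all and was not tested. A ratio of BCKDK to BCKDHA could not be formed because of the 0 counts of BCKDHA.

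DLD, which is not among the 10 enzymes, was the only tested gene of BCAA degradation with an unadjusted p under 0.05, and it was higher in siSHMT2. It was 22.7, 19.1 and 22.9 CPM in siNC and 31.7, 37.6 and 37.3 CPM in siSHMT2. The groups did not overlap. The log2 fold change was 0.72 (standard error 0.32, 95% interval 0.07 to 1.36), or 1.64-fold, and it did not pass adjustment (edgeR adjusted p 1.00). Its unadjusted p was above 0.05 with DESeq2 (0.069) and, in edgeR, without siNC replicate 2 (0.068), siSHMT2 replicate 2 (0.072) or siSHMT2 replicate 3 (0.063). LAMB1 lies opposite 5.88% of the exonic bases of DLD, and it had 441 counts against 130 for DLD.

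In the leucine branch, IVD encodes isovaleryl-CoA dehydrogenase, the step after the complex. IVD (ENSG00000128928, chromosome 15 from 40405485 to 40435947, plus strand) had 7, 6 and 8 counts in siNC and 1, 1 and 4 in siSHMT2. In CPM it was 8.37, 9.54 and 8.73 against 1.87, 1.25 and 4.82, and the groups did not overlap. IVD and, through the library totals, BCKDHB were the members with groups apart, 2 of 10, where 7.07% of all genes with a count and 9.19% of the tested genes were apart in either direction, and 3.17% of the former were apart with siSHMT2 lower. The count ratio of IVD was 0.312 (95% exact interval 0.103 to 0.8). This counting interval lay wholly below 1 for IVD alone among the 9 members with a ratio, and for 4.31% of all genes with counts in both groups. IVD did not pass the filter on low counts. In a fit of all genes with any count, its log2 fold change was -1.63 (standard error 0.76) with an unadjusted p of 0.031 and an edgeR adjusted p of 0.84, and 3.35% of the 20836 genes had an unadjusted p under 0.05 in that fit. FPKM values averaged 1.90 ± 0.0595 for siNC and 0.572 ± 0.422 for siSHMT2 (SD, n = 3 each), and an exact permutation test, two-sided, gave p = 0.1, the smallest that 3 against 3 can give. The siNC values rest on 7, 6 and 8 counts, so this SD is smaller than their counting error and does not show a precise level. No exon of another gene overlaps IVD on either strand, and the log2 count ratio lay between -2.58 and -1.26 when each library was left out in turn.

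MCCC2 is the other leucine enzyme of the list and encodes the beta subunit of methylcrotonyl-CoA carboxylase. MCCC2 (ENSG00000131844, chromosome 5 from 71579531 to 71658706, plus strand) had 25, 13 and 12 counts in siNC and 12, 12 and 13 in siSHMT2. In CPM it was 29.9, 20.7 and 13.1 in siNC and 22.4, 15.0 and 15.7 in siSHMT2. The siSHMT2 values lay within the range of siNC. The log2 fold change was -0.29 (standard error 0.40, 95% interval -1.09 to 0.52), the edgeR adjusted p was 1.00, and without siNC replicate 1 the log2 fold change was 0.08. Its partner MCCC1, the biotin-carrying alpha subunit, was at 0.43 on the same scale (standard error 0.49, edgeR adjusted p 1.00). Whether MCCC1 and MCCC2 differed from each other was not tested.

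The isoleucine and valine branches gave few counts. ACADSB (ENSG00000196177, chromosome 10 from 123008979 to 123058290, plus strand), the acyl-CoA dehydrogenase of the isoleucine branch, had 1, 2 and 4 counts in siNC and 2, 1 and 3 in siSHMT2. Its groups overlapped, and the count ratio was 0.937 (95% exact interval 0.26 to 3.26). HIBCH (ENSG00000198130, chromosome 2 from 190189735 to 190344193, minus strand) is the hydrolase of the valine branch that frees hydroxyisobutyrate from CoA. It had 7, 0 and 8 counts in siNC and 4, 1 and 2 in siSHMT2. The lowest library of HIBCH was in siNC, the groups overlapped, and the count ratio was 0.51 (95% exact interval 0.176 to 1.33). Its log2 value of -0.97 was -1.79 without siSHMT2 replicate 1 and -0.51 without siSHMT2 replicate 2.

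**Figure D2:**
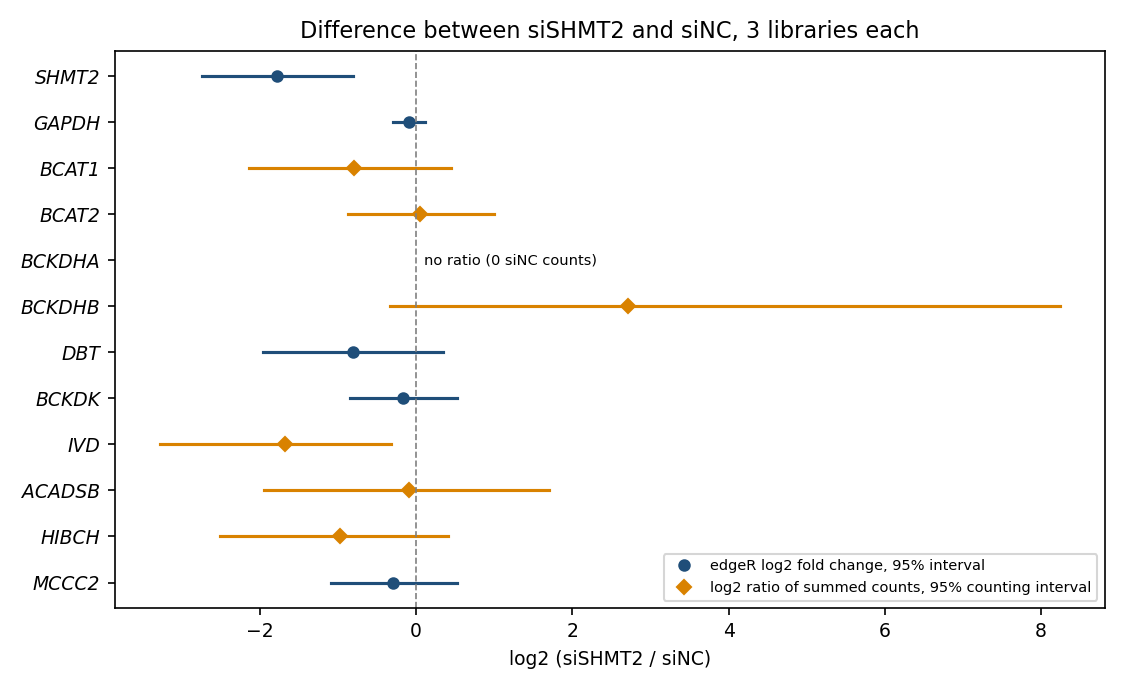
Difference between siSHMT2 and siNC on a log2 axis for SHMT2, GAPDH and the 10 enzymes. Circles are edgeR log2 fold changes with 95% intervals and diamonds are ratios of summed counts with 95% exact counting intervals. The intervals of SHMT2 (-2.74 to -0.81) and IVD (count ratio 0.103 to 0.8) lie below 0, those of the other enzymes cross it, and BCKDHA has no ratio.

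Levels of different genes were compared by FPKM, over the 6 libraries. BCKDK was the highest, with 9.20 ± 0.864 FPKM (SD, n = 6), and lay above BCAT2 in 6 of 6 libraries. BCAT2 followed with 4.21 ± 1.13 FPKM (SD, n = 6) and MCCC2 with 3.52 ± 1.15 FPKM (SD, n = 6), and BCAT2 was above MCCC2 in 5 of 6 libraries. HIBCH, IVD, DBT, BCAT1, ACADSB, BCKDHB and BCKDHA came next, from 1.41 down to 0.358 FPKM. HIBCH lay above IVD in 4 of 6 libraries, IVD above DBT in 4, DBT above BCAT1 in 5, BCAT1 above ACADSB in 3, ACADSB above BCKDHB in 4 and BCKDHB above BCKDHA in 3, so BCKDK was the single member set apart from its neighbour in every library. This order pools the groups. BCKDK, BCAT2 and MCCC2 came first in each group, with mean FPKM of 9.73, 4.13 and 3.84 in siNC and 8.67, 4.28 and 3.20 in siSHMT2. The lower ranks differed between the groups. In siNC, IVD (1.90 FPKM) was above HIBCH (1.73 FPKM). In siSHMT2, IVD (0.572 FPKM) was below BCKDHB (0.727 FPKM), BCKDHA (0.716 FPKM) and DBT (0.625 FPKM), and BCAT1 was the lowest with 0.394 FPKM. The mean of BCKDHA came from the 2 counts of siSHMT2 replicate 1 (2.15 FPKM), and in siSHMT2 replicates 2 and 3 IVD (0.262 and 1.05 FPKM) was above BCKDHA (0 in both). The kinase was listed at a higher mRNA level per length than DBT and the decarboxylase subunits. With the exonic length of GENCODE release 44 in place of the listed length, BCKDK, BCAT2 and MCCC2 kept ranks 1 to 3, DBT moved from rank 6 to rank 4 and HIBCH from rank 4 to rank 6. The length of MCCC2 rose from 5535 to 20778 bases, so its level per kilobase fell from 3.52 to 0.937, close to DBT at 0.848 and IVD at 0.842, and the level fell from 9.20 to 6.08 for BCKDK, from 4.21 to 2.08 for BCAT2 and from 1.41 to 0.657 for HIBCH.

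The summed level of the 10 enzymes was 90.9, 92.2 and 96.0 CPM in siNC replicates 1 to 3 and 74.6, 60.1 and 84.3 CPM in siSHMT2 replicates 1 to 3. Every siSHMT2 library was lower than every siNC library, but this separation did not hold once MCCC2 was left out. Without MCCC2 the groups overlapped, with 61.0 CPM in the lowest siNC library and 68.7 CPM in the highest siSHMT2 library. The ratio of the group means was 0.77 without MCCC2 and 0.785 with it, so the lower mean did not come from MCCC2. With each of the other 9 enzymes left out in turn the groups did not overlap, by as little as 73.1 against 72.8 CPM without DBT. The mean of all 10 was 93.0 ± 2.66 CPM for siNC and 73.0 ± 12.2 CPM for siSHMT2 (SD, n = 3 each), a ratio of 0.785, and no test was made of a sum over chosen genes. These sums rest on 76, 58 and 88 counts in siNC and 40, 48 and 70 in siSHMT2. The siNC SD is smaller than the counting error of such sums, and so is the gap between 90.9 and 84.3 CPM. The gap between the groups was narrower with the library total alone in place of TMM, with 87.8 CPM in the lowest siNC library and 85.9 CPM in the highest siSHMT2 library. The ratio was 0.746 to 0.836 when each enzyme was left out in turn and 0.724 to 0.854 when each library was. Of the 9 enzymes with a count ratio, 7 were below 1 and BCAT2 and BCKDHB were above, and BCKDHA had none. This split turned on single libraries. Without siNC replicate 3, the log2 count ratio moved from -0.09 to 0.45 for ACADSB and from -0.79 to 0.03 for BCAT1. Without siSHMT2 replicate 3, that of BCAT2 moved from 0.06 to -0.33. Among all genes with counts in both groups, 48.5% had a count ratio below 1. The ratio was 0.916 for the lipoylation genes (53 counts), 0.665 for the leukocyte markers, 0.621 for the endothelial markers and 0.488 for the fibroblast markers, and the groups overlapped for each of these lists. The lipoylation sums were 9.57, 15.9 and 9.82 CPM in siNC and 1.87, 8.76 and 21.7 CPM in siSHMT2. The 3 tested enzymes had a median log2 fold change of -0.29 against -0.0003 for all tested genes, and the filter tests genes by their abundance in either group.

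**Figure D3:**
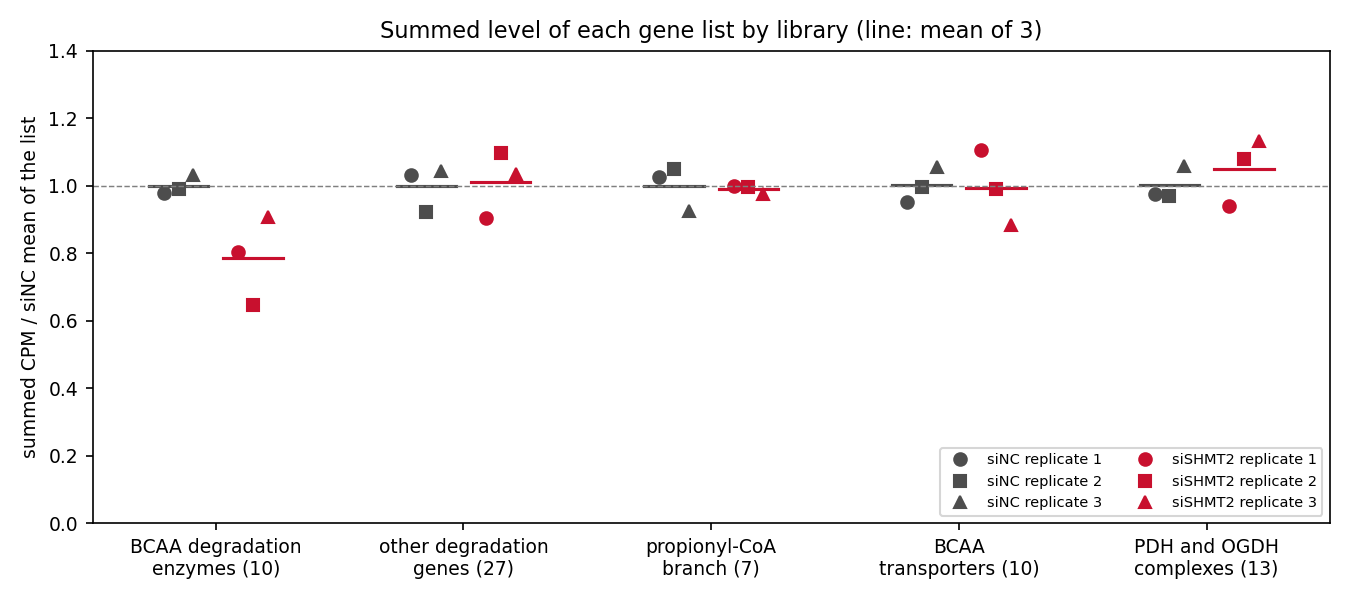
Summed CPM of each gene list in each library, divided by the mean of the 3 siNC libraries of that list, with a line at the mean of each group. The 10 enzymes have a mean ratio of 0.785 in siSHMT2, and the other 4 lists drawn (other degradation genes, propionyl-CoA branch, transporters, and pyruvate and oxoglutarate dehydrogenase complexes) lie between 0.99 and 1.05.

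The other genes of valine, leucine and isoleucine degradation had sums of like size in the groups, and whether this differed from the 10 enzymes was not tested. Of 27 such genes, 25 had a count and 14 were tested, of which 1 (DLD) was higher and 0 were lower at an unadjusted p under 0.05, against 1.97% higher and 1.85% lower of all tested genes. The median log2 fold change of the 14 was -0.02 (from -0.63 for HADH to 0.72 for DLD), with 7 below 0 and 7 above 0. Their summed level was 529 ± 35.4 CPM for siNC and 535 ± 52.7 CPM for siSHMT2 (SD, n = 3 each). ALDH3A2, a fatty aldehyde dehydrogenase, had the most counts of the list, 501 against 350 for HADHA. HADHA, the alpha subunit of the trifunctional protein of fatty acid oxidation, was higher by mean FPKM, 24.9 against 21.4 for ALDH3A2. The log2 difference was 0.06 (standard error 0.19) for ALDH3A2 and -0.12 (standard error 0.21) for HADHA, each within its error. ECHS1, the enoyl-CoA hydratase shared by the valine and isoleucine branches, was not tested. It had 9, 13 and 13 counts in siNC and 3, 8 and 7 in siSHMT2, with the CPM of the groups apart, and was named after its values were seen. The count ratio of ECHS1 was 0.562 (95% exact interval 0.3 to 1.02). ALDH1B1, also untested and named after its values were seen, went the other way. It had 1, 5 and 4 counts in siNC and 2, 11 and 8 in siSHMT2. Its groups overlapped, and the count ratio was 2.29 (95% exact interval 1.03 to 5.46, counting error only). In all, 3 of the 25 genes with a count had groups apart, ECHS1 with siSHMT2 lower and DLD and MCCC1 with siSHMT2 higher, against the 7.07% of all genes with a count. For MCCC1 the gap was small, since siNC replicate 3 and siSHMT2 replicate 3 both rounded to 12.0 CPM, and by FPKM its groups overlapped (4.30 in siNC replicate 3 and 4.25 in siSHMT2 replicate 2).

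The propionyl-CoA branch carries the end product of isoleucine and valine into the TCA cycle as succinyl-CoA. Of its 7 genes, PCCB and MMADHC were tested and 0 had an unadjusted p under 0.05, against 3.82% of all tested genes. PCCB, the beta subunit of propionyl-CoA carboxylase, was 835, 857 and 756 CPM in siNC and 823, 808 and 784 CPM in siSHMT2, with overlapping groups and a log2 fold change of -0.02 (95% interval -0.23 to 0.19). PCCB held 95% of the counts of its list, while its partner subunit PCCA had 5 counts. STAG1 lies opposite 1661 exonic bases of PCCB (22.2%), and it had 521 counts against 3667 for PCCB.

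BCAA enter the cell mainly through the heterodimer of SLC7A5 and SLC3A2. Of 10 transporter genes, 4 were tested and 0 had an unadjusted p under 0.05, against 3.82% of all tested genes. The groups were apart for 1 of the 8 with a count, against 7.07% of all genes with a count. This was SLC7A8, an amino acid transporter related to SLC7A5 that was not tested. It was 10.8, 9.54 and 15.3 CPM in siNC and 7.46, 7.51 and 7.23 CPM in siSHMT2, with a count ratio of 0.603 (95% exact interval 0.306 to 1.15), and was named after its values were seen. SLC7A7, also untested and named after its values were seen, went the other way. It had 0, 1 and 1 counts in siNC and 0, 4 and 7 in siSHMT2. Its groups overlapped, and the count ratio was 6.01 (95% exact interval 1.31 to 55.8, counting error only). SLC7A5 was 152, 173 and 187 CPM in siNC and 188, 163 and 147 CPM in siSHMT2. The groups of SLC7A5 overlapped, and its log2 fold change was -0.05 (95% interval -0.37 to 0.26). For SLC3A2 the log2 fold change was 0.10 (standard error 0.19). SLC25A44, the mitochondrial BCAA carrier, was at 0.20 (standard error 0.46). The summed level of the transporters was 327 ± 17.0 CPM for siNC and 325 ± 36.4 CPM for siSHMT2 (SD, n = 3 each).

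**Figure D4:**
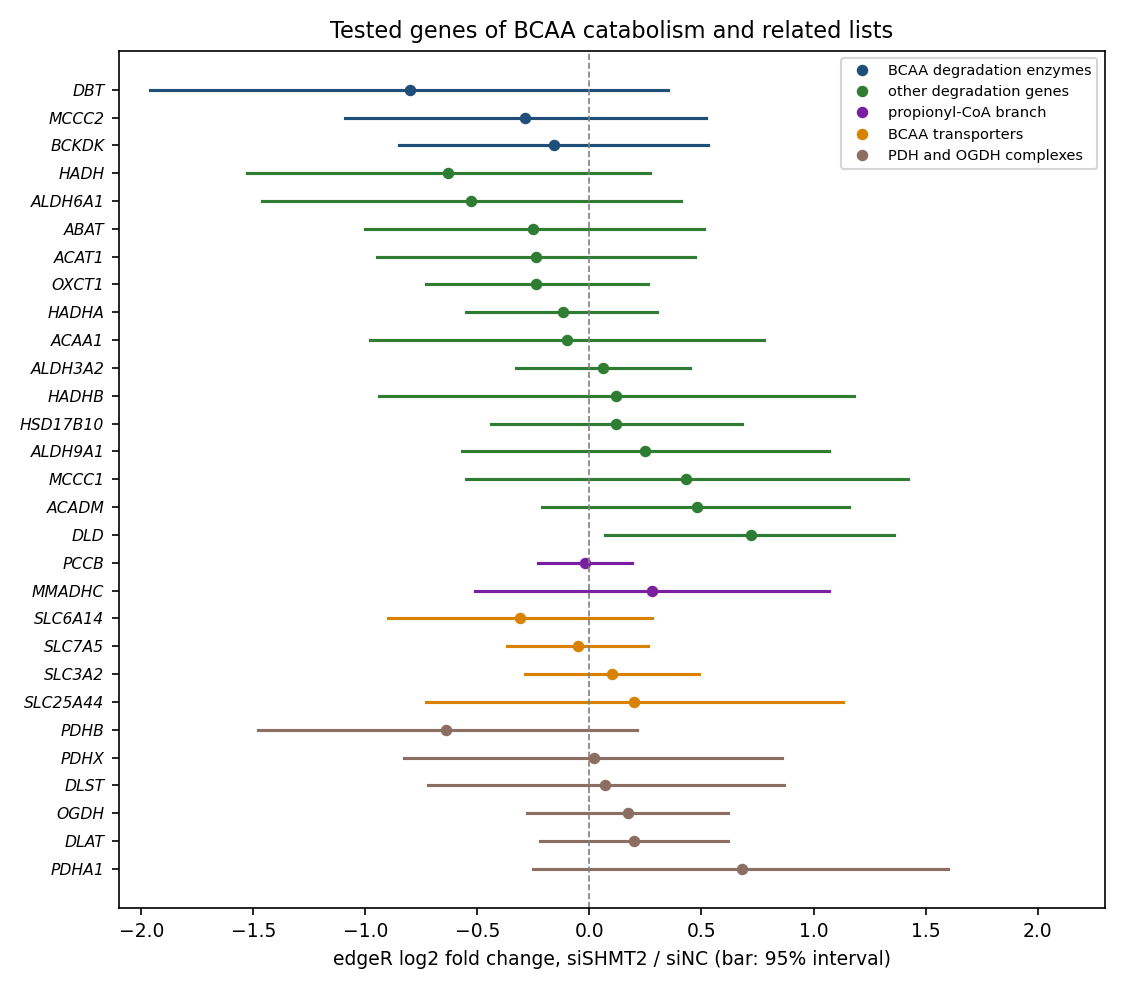
edgeR log2 fold change of siSHMT2 over siNC (horizontal axis, bars are 95% intervals) for every tested gene of 5 lists (the 10 enzymes, other degradation genes, propionyl-CoA branch, transporters, and pyruvate and oxoglutarate dehydrogenase complexes), coloured by list. The interval of DLD (0.07 to 1.36) lies above 0, and those of the other genes shown include 0.

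The library kit is strand-specific, and the program that assigned reads to genes and its strand setting are not given in the sources used here. Antisense exons overlap 5.25% of the exonic bases of BCAT2, 2.77% of HIBCH, 2.55% of BCAT1 and 1.43% of DBT, and none of BCKDHA, BCKDHB, BCKDK, IVD, ACADSB and MCCC2. The opposite gene of HIBCH is INPP1, which had 9, 5 and 10 counts in siNC and 4, 8 and 6 in siSHMT2, or 42 in all against 22 for HIBCH. For GAPDH, 17.6% of the exonic bases lie opposite a lncRNA gene, ENSG00000269968, which had 7896 counts against 4491 for GAPDH. If the setting was opposite to the kit, the counts would be reads of the strand opposite each gene. This bears on every count given here, those of the 10 enzymes and SHMT2 included, and was not tested. Low counts were common in the table: 47.8% of the 20045 protein-coding genes had fewer than 10 counts over the 6 libraries, as did BCKDHA and BCKDHB. The library totals were also far below the number of sequenced reads per sample that the paper gives. Most of the sequenced reads are thus not in these counts, and a low count alone does not show low expression.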

How the data were processed

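RNA-seq libraries of HT-1376 cells were analysed from the gene counts and FPKM values deposited by the authors. Per the labels and the paper's methods, the authors trimmed reads with fastp 0.23.4 and aligned them to GRCh38 with HISAT2 2.2.1. The counting program is not given in the sources used here. The deposited counts are raw whole numbers, and the deposited FPKM values are those counts divided by listed gene length and library total. FPKM is 0 for 91 genes without a listed length. Gene lengths are in bases, and positions and overlaps came from GENCODE release 44.

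siSHMT2 and siNC were compared in R 4.3.3 with edgeR 4.0.16 (TMM, filterByExpr, quasi-likelihood test, two-sided, no block), with adjustment over 7207 genes. The median count of these genes was 25. Replicate libraries differed by 1.74 to 2.33 times the counting noise (chi-square per degree of freedom). Members outside the filter got ratios of summed counts with exact 95% intervals. Because of 0 counts, a share replaced the BCAT1 to BCAT2 log2 ratio. Groups were called apart on log2 CPM at a prior count of 2. Alternatives tried were DESeq2 1.42.0, limma 3.58.1, other normalizations and filters, a replicate block and each library left out. Named genes were the 10 enzymes, SHMT2, GAPDH, opposite-strand genes and, per list, the gene with the most counts and those with an unadjusted p under 0.05. Other genes were named as examples. The members and lists were chosen with earlier results of these data known.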

Additional observations from a re-analysis of the deposited data

How the results depend on the processing

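BCKDK and MCCC2 in 14 alternatives and DBT in 13 had no adjusted p under 0.05, whether by edgeR, DESeq2 or limma. The other 7 enzymes had an adjusted p without the filter on low counts only, from 0.84 to 1.00 in edgeR. SHMT2 and DBT could not be tested under the stricter filter, a minimum of 10 counts per library. The log2 fold change of BCKDK stayed between -0.25 and -0.10 and that of DBT between -1.75 and -0.46. MCCC2 was lower in 13 of 14 alternatives and 0.08 without siNC replicate 1, with a range of -0.57 to 0.08 when each library was left out. The number of enzymes with an unadjusted p under 0.05 was 0 as reported, 1 (IVD) without the filter on low counts and 0 to 1 with a library left out, the 1 being DBT without siSHMT2 replicate 3. The median of the 3 tested enzymes ranged from -0.57 to -0.18 with a library left out. Genes with an unadjusted p under 0.05 numbered 275 as reported, 117 with DESeq2 and 699 without the filter, which tested 20836 genes; for DESeq2 the cause was not tested. Genes past the adjusted p and fold change were 0 with all libraries and 0 to 1 with a library left out (CNBP, without siSHMT2 replicate 3). SHMT2 ranged from -2.58 without siSHMT2 replicate 1 to -1.31 without siSHMT2 replicate 2. DLD ranged from 0.64 to 0.78, with an unadjusted p of 0.069 with DESeq2. Same-numbered libraries did not deviate together (r of -0.0155, 0.0484 and -0.0119), and with the replicate number as a block 303 genes had an unadjusted p under 0.05, with 0 enzymes among them. Low counts limit every enzyme: the counts of single libraries were 0 to 25. The use of GENCODE lengths, the sums with a library or an enzyme other than BCKDK left out and the BCAT1 share were chosen after the data were seen.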

Other observations

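The complexes related to the BCAA dehydrogenase use the same DLD subunit. Of 13 genes of the pyruvate and oxoglutarate dehydrogenase complexes and their regulators, 6 were tested, with a median log2 fold change of 0.12 and 0 with an unadjusted p under 0.05, against 3.82% of all tested genes. Their values ran from -0.64 for PDHB to 0.68 for PDHA1, the beta and alpha subunits of the same pyruvate decarboxylase. DLAT, the core transacylase of the pyruvate complex and the most abundant of them, was 65.8, 74.7 and 80.7 CPM in siNC and 65.3, 104 and 81.9 CPM in siSHMT2, and its groups overlapped. PIH1D2 lies opposite 13.3% of the exonic bases of DLAT, and it had 3823 counts against 362 for DLAT. Of the lipoylation genes, LIPT2 and LIPT1 transfer the octanoyl or lipoyl group and LIAS inserts its sulfur, which gives the cofactor of the core subunits. Together they held 53 counts in all and were not tested. LIPT1 had 6, 7 and 8 counts in siNC and 0, 5 and 14 in siSHMT2, with both the lowest and the highest library in siSHMT2.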
